A study of Mus musculus with 663 samples.

Results

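The Iroquois genes Irx1 to Irx6 were followed through mouse ovary development by taking their 6 rows from the 43347 gene rows of 1 single-cell expression table. Iroquois genes encode homeodomain transcription factors of the TALE class, whose homeodomain carries an extra loop. In mammals they lie in a pair of clusters, one holding Irx1, Irx2 and Irx4 and the other Irx3, Irx5 and Irx6. Irx3 and Irx5 are known in the ovary from pregranulosa cells, the supporting cells that surround germ cells and later form follicles.

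The cells came from XX gonads of mice on a mixed background that carried an eGFP reporter of Nr5a1, a transcription factor gene of the gonadal somatic lineage, and every group carried that reporter. Live eGFP-positive cells were sorted and captured on C1 microfluidic chips, so germ cells and somatic cells without the reporter were outside the sort. After a repeat library had been averaged with its first library the groups were named by embryonic day (E) or postnatal day (P), with 71 cells of E10.5, 106 of E11.5, 164 libraries of E12.5 (1 of them the repeat), 106 cells of E13.5, 95 of E16.5 and 121 of P6. They came from 12 captures (chip runs), 3 of them E12.5, 1 E10.5 and 2 of each other stage, and the capture was the replicate. Values are RPKM, reads scaled to gene length and library size, and a cell is said to carry a gene at 1 RPKM or more.

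The labels were checked against marker genes. Nr5a1 was carried by 74.8% of the cells, between 56.3% and 88.7% per capture, whereas the leukocyte gene Ptprc and the germ cell gene Pou5f1 were carried by 0 cells. Of other genes outside the sort, the germ cell genes Ddx4 and Dppa3 were carried by 5 and 1 cells and the endothelial gene Pecam1 by 6. The second E12.5 capture stood apart. Its estimated depth per cell, from the worth of 1 read, was a median of 0.148 M reads (M, mega), against 1.89 to 3.20 M in the others, and 40 of its 53 cells, labelled XX, held a transcript of at least 1 of 4 Y-linked genes. Stage changes and marker differences whose value it moves are given with and without it.

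Of the 6 genes, Irx3 and Irx5 were detected repeatedly and the other 4 in 3 cells altogether. Irx3 (ENSMUSG00000031734.13, GRCm38 chr8:91798525-91802067, minus strand) was above 0 in 197 cells and carried by 21.5% of all cells. Irx5 (ENSMUSG00000031737.11, chr8:92357625-92376286, plus strand) was above 0 in 73 cells and carried by 50 (7.55%). Irx6 (chr8:92674288-92680956), the last gene of this cluster, was listed at 0 in every cell, a count that allows up to 0.453% of cells with a read, for counting error only, and sets no limit on cells that express the gene below detection. Irx3 and Irx5 are 556 kb apart and Irx6 lies 298 kb beyond Irx5.

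The chromosome 13 cluster was nearly empty. Irx2 (chr13:72628820-72634198) was listed at 0 in every cell. Irx1 (chr13:71957921-71963723) was above 0 in 2 cells, at 1.68 RPKM in the second E12.5 capture and 0.152 RPKM in the first P6 capture. Their depths were 0.251 and 2.78 M reads, so 1 read was worth more RPKM in the former and the values cannot be compared as levels. In that shallow capture 1 read of Irx3 was worth a median of 2.59 RPKM, above the 1 RPKM at which a gene counts as carried. Irx4 (chr13:73260479-73269608) had 1 cell, at 20.4 RPKM, at E10.5. Neither Irx3 nor Irx5 was detected in any of these 3 cells. Only 2 of the 6 members, Irx3 and Irx5, reached a capture mean of 1 RPKM and entered the main tests between stages. In an alternative fit with no filter, Irx1 and Irx4 entered too. Irx4 then changed by -0.36 from E10.5 to E11.5. That change rests on its 1 cell in the only E10.5 capture, so the call limma made for it there has no replicate behind it.

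**Figure D1:**
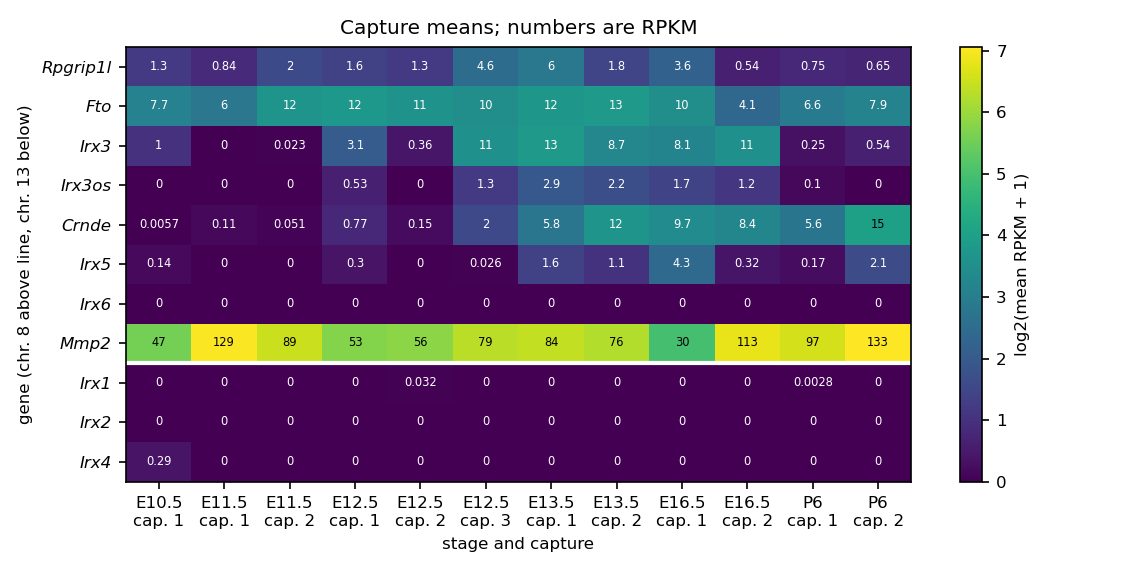
Mean RPKM over the cells of each capture for the Iroquois genes and 5 neighbours, in chromosome order within each cluster, with colour on a log2(mean + 1) scale. Irx3, Irx3os, Crnde and Irx5 are low at E11.5 and higher at E13.5, Irx6 and the chromosome 13 genes stay at or near 0, and Crnde keeps its level at P6.

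As a description, 1 promoter window is shown from the chromosome 8 locus and 1 from the nearly empty chromosome 13 cluster. A link between these sequences and the levels was not tested. The RefSeq promoter table (GRCm38.p6) had entries for Irx2, Irx3, Irx4 and the antisense gene Irx3os. The 250 bases before the RefSeq start of Irx3os, whose RNA accompanied that of Irx3, and of Irx2, which had no reads, are given 5′ to 3′ on the plus strand with motif matches in capitals.
Irx3os chr8:91803086-91803335: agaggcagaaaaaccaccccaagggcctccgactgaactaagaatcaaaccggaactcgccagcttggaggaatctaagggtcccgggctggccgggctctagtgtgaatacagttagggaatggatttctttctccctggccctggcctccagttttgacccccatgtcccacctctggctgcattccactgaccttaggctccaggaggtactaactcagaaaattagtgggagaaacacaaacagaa
Irx2 chr13:72628570-72628819: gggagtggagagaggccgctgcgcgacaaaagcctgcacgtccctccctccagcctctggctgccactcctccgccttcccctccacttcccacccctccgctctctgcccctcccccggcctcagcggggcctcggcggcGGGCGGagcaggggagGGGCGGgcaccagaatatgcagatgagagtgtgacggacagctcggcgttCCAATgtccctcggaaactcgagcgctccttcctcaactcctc
Both strands were searched for AGATAA, a motif of GATA factors, for CTTTGA, a motif of TCF and LEF factors, for GTAAACA, a forkhead motif, for the TATA box as TATAAA, for the CCAAT box by its name's letters and for the GC box as GGGCGG. The Irx2 window held 2 GC boxes and 1 CCAAT box, which are present in 32.7% and 33.9% of the 32851 promoters of this length, and a GC content of 68.4%. The Irx3os window held none of the 6 motifs and had a GC content of 52.8%, against a median of 52.4% over all promoters. The GENCODE gene Irx3os begins further upstream, at chr8:91800415 (to 91807539, plus strand), so that window lies in an intron of it and not before its start. Neither window overlapped a GENCODE exon of its gene, and a match is a description of letters only.

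The first question was when Irx3 appears. The E10.5 capture had a mean of 0.996 RPKM, and the 2 E11.5 captures stood at 0 and 0.0228 RPKM. The 3 E12.5 captures stood at 3.14, 0.356 and 10.7 RPKM, the 2 E13.5 captures at 12.7 and 8.71, the 2 E16.5 captures at 8.08 and 10.6, and the 2 P6 captures at 0.246 and 0.545. Both E13.5 captures and both E16.5 captures were thus above both E11.5 captures and both P6 captures, and the E12.5 captures spread widely, with the third inside the E13.5 range.

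The share of cells followed the same course. Irx3 was carried by 4 of 71 cells of the E10.5 capture (5.63%), by 0 of 53 and 1 of 53 cells in the E11.5 captures, and by 13 of 53 (24.5%), 2 of 53 (3.77%) and 20 of 57 (35.1%) in those of E12.5. It reached 29 of 53 cells (54.7%, exact 95% interval 40.5 to 68.4) in each E13.5 capture and 22 of 55 and 16 of 40 (both 40%) at E16.5, and stood at 2 of 55 (3.64%) and 4 of 66 (6.06%) at P6. Intervals cover counting error in the number of cells only and leave out the spread between captures. The protocols also name no molecular identifiers. Among carriers the median level was similar from E13.5 to P6. It was 6.36 and 9.24 RPKM in the E13.5 captures, 8.38 and 8.83 at E16.5 and 6.59 and 7.59 in the few P6 carriers. Earlier medians spread more widely, at 11.3 RPKM in the 4 carriers of E10.5 and 1.04 RPKM in the 1 carrier of E11.5. The E12.5 captures stood at 4.94, 9.44 (2 carriers) and 8.77 RPKM. A capture mean could still rest on 1 cell: the highest cell of the third E12.5 capture, at 252 RPKM, made up 41.4% of that capture's sum.

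**Figure D2:**
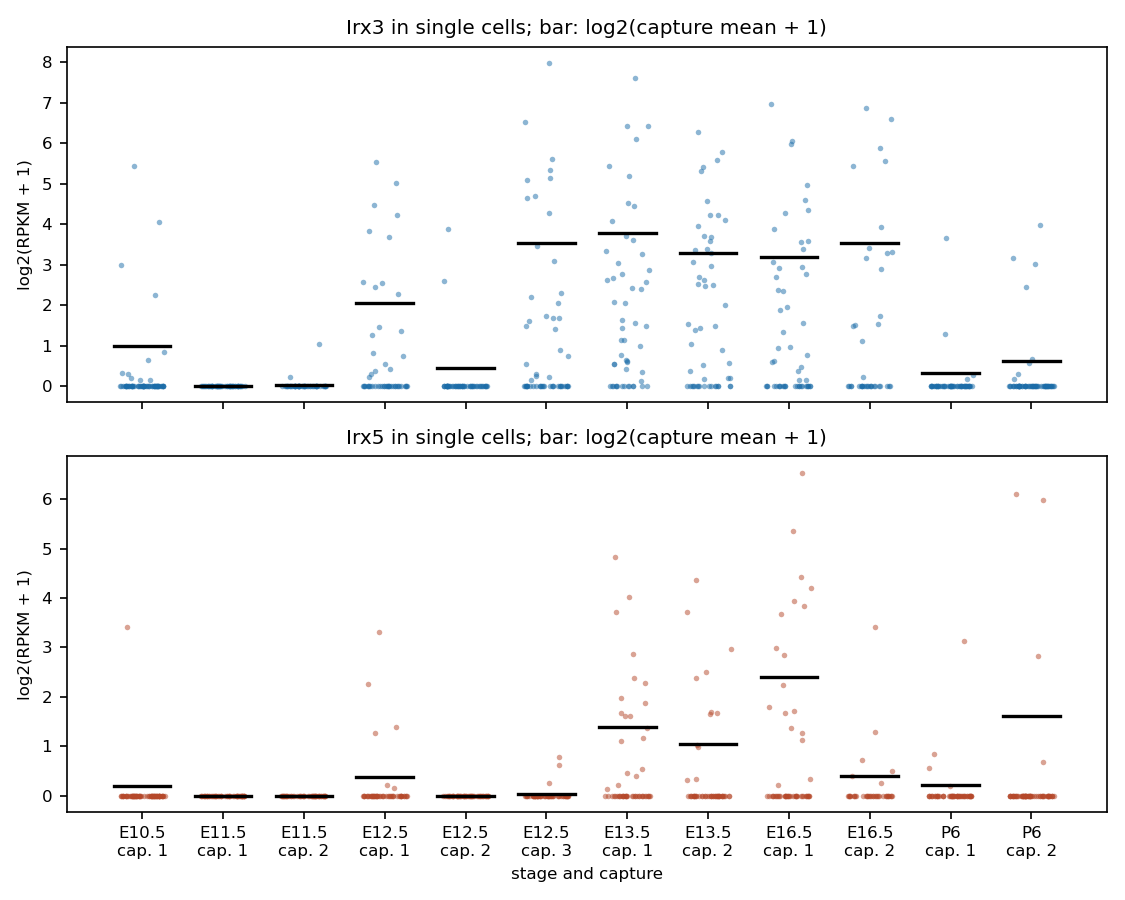
Irx3 (above) and Irx5 (below) in single cells, as log2(RPKM + 1), by stage and capture, with each dot 1 cell and each bar the log2 of the capture mean plus 1. Irx3 values spread upward in the first and the third E12.5 captures, at E13.5 and at E16.5, while Irx5 is high in few cells, among them 2 P6 cells above 60 RPKM.

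Between stages, levels were tested with limma on log2(capture mean + 1), with sequencing series as a covariate and Benjamini-Hochberg adjustment over 19710 genes. From E11.5 to E13.5 Irx3 differed by 3.51 ± 0.62 (SE) on that scale, from 0.0114 ± 0.0161 RPKM to 10.7 ± 2.85 (SD, n = 2 each), with unadjusted p = 0.000701 and adjusted p = 0.250. In this comparison 0% of genes passed limma, with 1042 genes at an unadjusted p under 0.05, and Irx3 was 52nd by p. Only 22 genes had a larger positive change. The step from E12.5 to E13.5 was 2.29 ± 0.62 (adjusted p = 0.472; 0% of genes passed and 1628 were under 0.05 unadjusted). It came to 1.48 without the shallow second E12.5 capture (adjusted p = 0.519) and to 3.09 without the first E12.5 capture (limma adjusted p = 0.0225), the only setting in which this step passed for Irx3 and one in which 8.26% of all genes passed.

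With all captures and the series term, the steps before E12.5 were smaller than that from E12.5 to E13.5. Which of the steps into and out of E12.5 was larger depended on the setting. Without the shallow capture their order was reversed, with 2.03 from E11.5 to E12.5 and 1.48 from E12.5 to E13.5. It was also reversed with no series term and with a pseudocount of 0.1 RPKM. The other alternative fits that held both steps kept the first order. From E10.5 to E11.5 Irx3 changed by -0.98 ± 0.76 (limma adjusted p = 1, where 0.969% of genes passed). From E11.5 to E12.5 it differed by 1.23 ± 0.62 (limma adjusted p = 0.625; 0% of genes passed and 1588 were under 0.05 unadjusted), by 2.03 without the shallow capture (adjusted p = 0.267) and by 0.42 with the first E12.5 capture left out (limma adjusted p = 0.722).

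E13.5 and E16.5 were alike in RPKM. Stage means were 10.7 ± 2.85 RPKM at E13.5 and 9.35 ± 1.81 at E16.5 (SD, n = 2 each), and the captures overlapped. The fitted change of -2.47 ± 0.98 (limma adjusted p = 0.648, where 0.528% of genes passed) rests on the series covariate, since every E13.5 capture belonged to the first sequencing series and every E16.5 capture to the second. The fitted change was -1.67 without the shallow E12.5 capture (limma adjusted p = 0.585). Without the series term it was -0.17, and stage and series cannot be told apart here other than through the E12.5 captures.

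At P6 Irx3 stood at 0.395 ± 0.211 RPKM (SD, n = 2), lower than at E16.5 by a change of -2.89 ± 0.62 on the log2 scale (unadjusted p = 0.00217, limma adjusted p = 0.153). Here 0.289% of genes passed, and Irx3 was 280th by p. Both stages belong wholly to the second series, so the fitted change rests on their own captures. Within that series alone it was therefore the same, at -2.89 (limma adjusted p = 0.455), which is no separate check. The sign of this change was negative in all 21 alternative fits, with limma adjusted p between 0.0681 and 0.455. Fits that left out only a capture of an earlier stage than E16.5 could not move its size. Over all stages together the F test gave an adjusted p of 0.0908 for Irx3, with 1.37% of genes past it, and a p under the threshold in 3 alternatives, without the first E12.5 capture (0.0198), with means of log values (0.0217) and without the second E12.5 capture (0.0336).

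Detection depended on depth, so each cell of at least 1 M reads was thinned to 1 M in expectation. The expected share of cells with an Irx3 read was then 68.8% and 62.7% at E13.5, 52% and 41.7% at E16.5, and 5.25% and 8.34% at P6, against unthinned shares of 73.6% and 67.9%, 56.4% and 42.5%, and 7.27% and 12.1%. The cells left out were 0 and 5 at E13.5, 2 and 3 at E16.5, and 1 and 10 at P6. The unthinned shares count these cells too, so thinned and unthinned shares differ in their cells as well as in depth. The order of the stages was thus unchanged by thinning. At the 0.148 M reads of the second E12.5 capture, the first and the third E12.5 captures would still show Irx3 in 22.1% and 30.7% of cells, whereas 3.77% of cells in that capture did, through 2 cells with 1 read each.

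**Figure D3:**
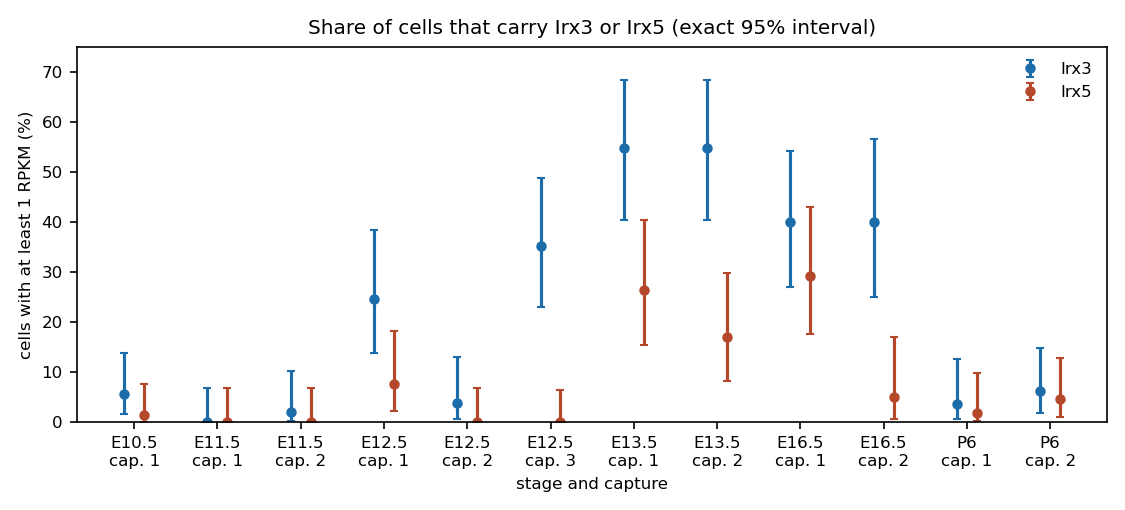
Percent of cells with at least 1 RPKM of Irx3 or Irx5 in each capture, with exact 95% binomial intervals. Irx3 is at 54.7% in both E13.5 captures and 40% in both E16.5 captures, while the 2 E16.5 captures differ in Irx5, at 29.1% and 5%.

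Irx5 was scarcer and less even between captures. The E10.5 capture had a mean of 0.136 RPKM and the 2 E11.5 captures were at 0. The 3 E12.5 captures stood at 0.301, 0 and 0.0256 RPKM, the 2 E13.5 captures at 1.63 and 1.07, the 2 E16.5 captures at 4.31 and 0.317, and the 2 P6 captures at 0.166 and 2.07. The E13.5 captures were above those of every earlier stage, but the E16.5 and P6 captures overlapped each other and E13.5. Carriers numbered 1 of the 71 E10.5 cells, 0 of the 106 E11.5 cells, and 4, 0 and 0 in the E12.5 captures. They made up 14 of 53 (26.4%) and 9 of 53 (16.98%) cells in the E13.5 captures, 16 of 55 and 2 of 40 in the E16.5 captures, and 1 of 55 and 3 of 66 in the P6 captures.

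No stage comparison of Irx5 passed limma. The change was 1.22 ± 0.71 from E11.5 to E13.5 (adjusted p = 0.948) and -0.48 ± 0.71 from E16.5 to P6 (adjusted p = 0.943, 95% interval of the change -2.15 to 1.18). The F test over all stages gave an adjusted p of 0.831. The share of carriers and the level parted at P6. The carrier share was 17% ± 17 at E16.5 and 3.18% ± 1.93 at P6 (SD, n = 2 each), whereas the mean of the second P6 capture came almost wholly from 2 cells, at 67.6 and 62.2 RPKM. Without the first E16.5 capture the change from E16.5 to P6 turned positive, at 0.52, and without the first P6 capture it was 0.21.

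Which cells carried Irx3 was asked within each capture, against genes that the Iroquois values did not define. Foxl2 encodes the forkhead factor of the granulosa lineage, and 22.5% of the cells carried it. In the 8 captures with at least 5 cells on each side, Irx3 was carried by a mean of 46.3% of Foxl2 cells and 27.5% of the others. By capture the counts in Foxl2 cells were 4 of 8 and 4 of 7 for E12.5, 12 of 19 and 10 of 14 for E13.5, 7 of 12 and 6 of 11 for E16.5, and 2 of 34 and 4 of 41 for P6. The difference of 18.8 percentage points ± 8.32 (SD, n = 8) was positive in 8 of 8 captures (exact sign-flip permutation test, two-sided p = 0.00781, the smallest that 8 captures allow; adjusted p = 0.0234 over 6 gene and marker pairs).

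Foxl2 cells also had more detected genes in each of those 8 captures, for example 5360 against 4100 in the second E16.5 capture and 7287 against 7089.5 in the first E13.5 capture, and the part of this in the result was not tested. As background, 3.18% of 13366 genes were carried more often by Foxl2 cells in every one of the 8 captures, and the median gene differed by 2.85 points. Counted at any value above 0, the Irx3 difference was 18.02 points and did not pass (exact permutation, adjusted p = 0.0938).

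Upk3b, a gene of the mesothelial surface epithelium, gave the opposite sign. Irx3 was carried by a mean of 16.3% of Upk3b cells and 26.7% of the others, a difference of -10.4 points ± 13.4 (SD, n = 9), with Upk3b cells lower in 8 of 9 captures and the first E11.5 capture at 0 on both sides (exact sign-flip permutation test, adjusted p = 0.0234). As background, 0.763% of genes were at or under the level of the other cells in all 9. The call did not hold when any value above 0 counted as carried, at -2.37 points (adjusted p = 0.914). It held without the shallow E12.5 capture, at -11.1 points, and without the third E12.5 capture, at -6.51 points (exact permutation, adjusted p = 0.0469 for both). In the third E12.5 capture 0 of 9 Upk3b cells carried Irx3, against 20 of 48 others, whereas at E13.5 the counts were 9 of 17 and 5 of 13 Upk3b cells.

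Nr2f2, a gene of stromal and steroidogenic progenitors, was carried by 91.99% of cells, which left 5 captures for the comparison. Irx3 was carried by 19.96% of Nr2f2 cells and 32.4% of the others, a difference of -12.5 points ± 22.9 (SD, n = 5; exact permutation, adjusted p = 0.656, smallest unadjusted p possible 0.0625). The difference was -16.7 points without the shallow E12.5 capture and -3.10 points without the second E13.5 capture. Irx5 passed with none of the 3 markers. Its share differed by 7.74 points ± 17.8 with Foxl2 (SD, n = 8; exact permutation, adjusted p = 0.375), by -1.63 ± 8.42 with Nr2f2 (n = 5; exact permutation, adjusted p = 0.900) and by 2.17 ± 13.54 with Upk3b (n = 9; exact permutation, adjusted p = 1). Without the first E12.5 capture the Foxl2 difference was 1.70 points. Without the shallow capture the differences with Nr2f2 and Upk3b were -2.04 and 2.45 points.

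**Figure D4:**
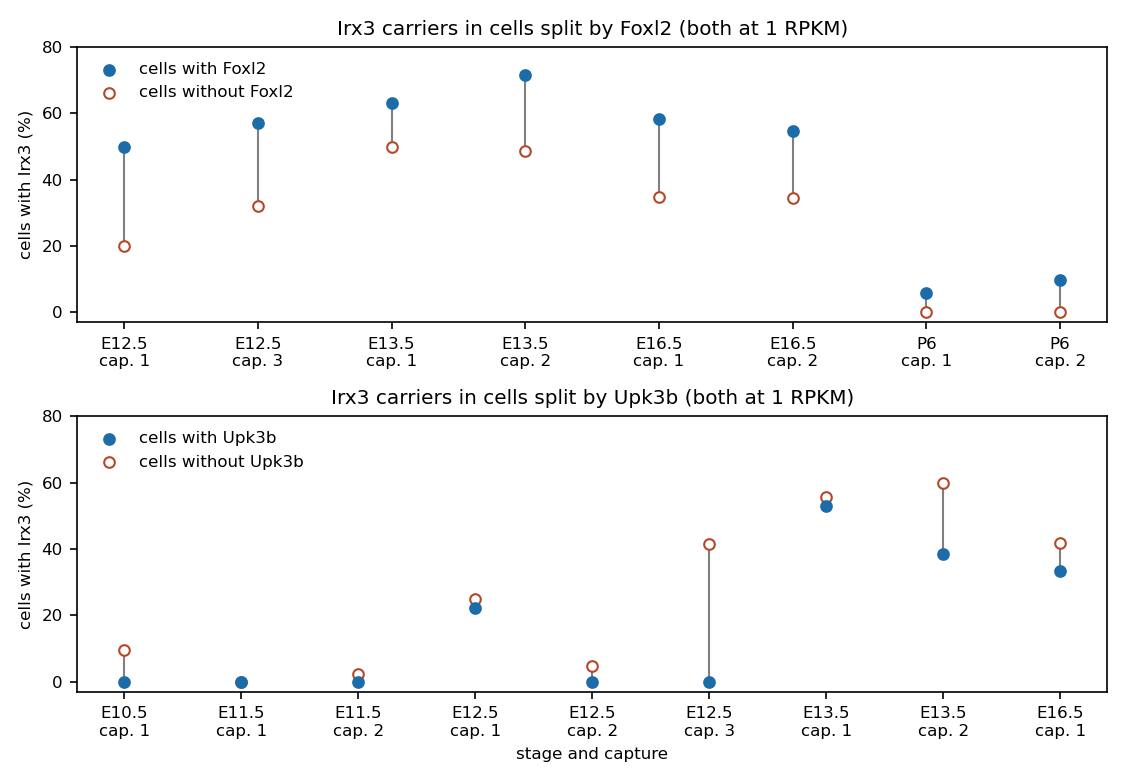
Percent of cells that carry Irx3 among cells with (filled) and without (open) Foxl2 (above) or Upk3b (below), in each capture with at least 5 cells on both sides, with a line joining the 2 values of a capture. The filled point is higher in 8 of 8 captures for Foxl2 and lower in 8 of 9 for Upk3b, and both P6 captures have 0% without Foxl2.

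A wider set of markers described the carriers in the 6 captures of E12.5 (first and the third), E13.5 and E16.5, without a test, since Irx3 values defined the split. Of 6 pregranulosa genes, 5 were carried more often by Irx3 carriers in every capture, beside 7.71% of 13367 genes. They were Gng13, a G protein subunit gene (63.9% of carriers against 26.7% of others), Fst, encoding the activin binder follistatin (60.9% against 26.9%), the factor gene Runx1 (67.2% against 34.5%), the ligand gene Bmp2 (47.4% against 15.8%) and Foxl2 (32.7% against 16.7%). Wnt4, a ligand of ovarian differentiation, was higher in 4 of 6 captures, at 58.9% against 47.7%.

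Of 5 stromal genes, 3 were carried less often in every capture, beside 2.51% of genes. Tcf21, a stromal bHLH factor gene, was in 15.7% of carriers and 51.8% of others, the receptor gene Pdgfra in 17.7% and 39.8%, and the matrix gene Lum in 4.65% and 15.9%. Of 5 surface epithelium genes, 2 were higher and 3 lower on average. Lhx9, a LIM homeobox gene that the early gonad also expresses, was in 80% of carriers and 47.1% of others, whereas Upk3b was in 16.8% and 22.8% and the keratin gene Krt19 in 17.9% and 25%. Of 5 genes of growing follicles, 2 were higher and 1 lower on average, while Amh and Fshr were carried by 0 cells on either side. The inhibin subunit gene Inha was in 48.7% of carriers and 22.8% of others, higher in 6 of 6 captures. Inhbb was in 16.1% and 11.8%, higher in 3 captures and lower in 2. Hsd17b1 was in 0% of carriers and 2.08% of others. Of 4 Sertoli genes, the factor gene Sox9 was in 26.1% and 18.6% and Cst9 in 6.77% and 2.76%, each higher in 4 of 6 captures, while Sox8 and Dhh were carried by 0 cells. Median detected genes were higher in Irx3 carriers in all 6 captures, for example 5296 against 3805 in the second E16.5 capture.

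The low P6 level of Irx3 was also seen within Foxl2 cells. Irx3 was carried by 13 of the 23 Foxl2 cells of E16.5 and by 6 of the 75 of P6, and its mean in these cells was 15.7 and 17.97 RPKM in the E16.5 captures and 0.394 and 0.862 in the P6 captures. A fit on the means of Foxl2 cells, chosen after seeing the data, gave a change of -3.47 (limma adjusted p = 0.164). All 6 Irx3 carriers of P6 carried Foxl2, and none of the 15 P6 cells with both Foxl2 and Amh, a marker of growing follicles, carried Irx3. With 6 carriers among the 60 P6 Foxl2 cells without Amh, a difference by Amh was not detectable at this number of cells.

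The few carriers of E10.5 and the P6 carriers of Irx5 could be described singly. At E10.5, 17 of 71 cells carried both Pax8 and Lhx1, genes of the mesonephros and its duct. They included 3 of the 4 Irx3 carriers, at 6.96, 15.7 and 42.1 RPKM of Irx3, and the only Irx5 carrier, at 9.64 RPKM. In these 4 cells Pax8 stood between 69.6 and 282 RPKM and Nr5a1 between 0 and 1.10 RPKM. At P6, 2 of the 3 Irx5 carriers of the second capture carried Upk3b, at 743 and 79.5 RPKM, with Foxl2 and Nr5a1 both at 0, while the remaining one, the 67.6 RPKM cell, carried Foxl2 at 70 RPKM. That capture held 2 Upk3b cells in all, and both carried Irx5. In the first E16.5 capture Irx5 was likewise in 7 of 12 Upk3b cells and 9 of 43 others, with a mean of 4.31 RPKM on both sides. In both E13.5 captures the share was slightly lower in Upk3b cells, at 4 of 17 against 10 of 36 and 2 of 13 against 7 of 40. It was 0 of 4 against 2 of 36 in the second E16.5 capture and 0 of 1 against 1 of 54 in the first P6 capture. In the first E12.5 capture it was 0 of 9 against 4 of 44, and at E10.5 0 of 29 against 1 of 42.

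Irx3 and Irx5 often occurred in the same cells. Both were carried by 33 cells, against 21.04 expected from the product of their shares within each capture, a ratio of 1.57 (exact Poisson interval 1.08 to 2.20, for counting error only). Of the Irx5 carriers 66% carried Irx3, and of the Irx3 carriers 23.2% carried Irx5. At E13.5 this was nearly a nesting, with 11 of 14 and 9 of 9 Irx5 carriers also carrying Irx3. At E16.5 the counts were 8 of 16 and 2 of 2, beside 40% of all cells, and at P6 1 of 1 and 0 of 3. Observed cells exceeded the product in 6 of the 8 captures with both genes.

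Among 13367 genes, Irx5 lay at the 99th percentile by its ratio to Irx3, where the median ratio was 1.03, and Irx3 ranked 882nd by its ratio to Irx5. Carriers of either gene had more detected genes in most captures, and the part of this in the ratio was not tested. Levels within the 33 cells were only loosely related, with r = 0.12 across cells on the log2 scale. Irx3 was the higher of the pair in 22 of them. The median Irx3 level was 9.05 RPKM in cells with both and 7.96 in cells with Irx3 alone, whereas the median Irx5 level was 3.84 RPKM in cells with both and 6.19 in cells with Irx5 alone.

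The combinations differed in their markers. Lgr5, a Wnt pathway receptor gene, was carried by 25 of the 33 cells with both genes (75.8%), 44 cells with Irx3 alone (40.4% of them), 9 of 17 with Irx5 alone (52.9%) and 38 of 503 with neither (7.55%). Gng13 was in 72.7%, 58.7%, 70.6% and 18.1% of the same 4 sets. Upk3b was in 24.2%, 13.8%, 41.2% and 19.3%, and Tcf21 in 15.2%, 17.4%, 29.4% and 49.3%. The cells of these sets come from different stages in different numbers, so the shares are a description.

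**Figure D5:**
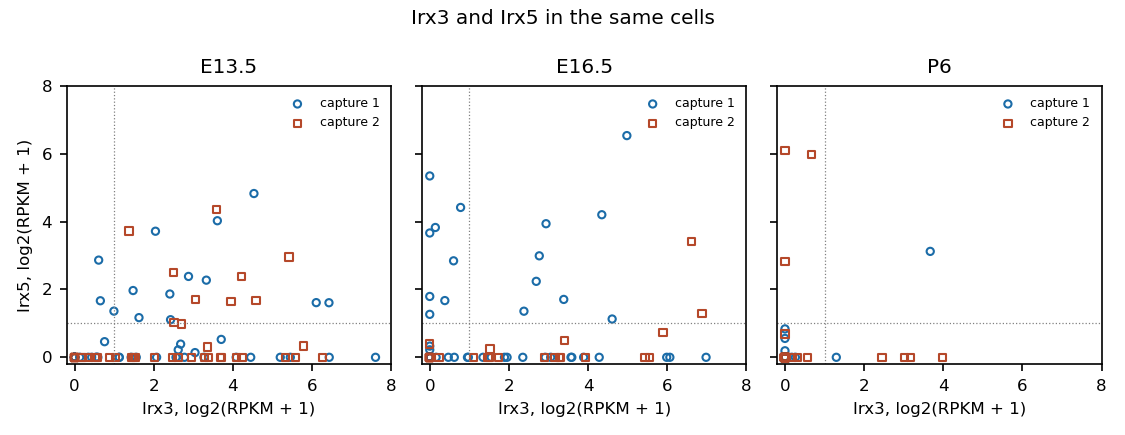
Irx3 against Irx5 in the same cells at E13.5, E16.5 and P6, as log2(RPKM + 1), with each symbol 1 cell and dotted lines at 1 RPKM. At E13.5 20 of 23 Irx5 carriers lie to the right of the Irx3 line, whereas at E16.5 8 Irx5 carriers of the first capture lie to its left.

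Around the chromosome 8 genes the neighbours went different ways. Irx3os, an antisense gene, overlaps Irx3 and shares 3.33% of its 3725 exon bases with it. How the counting used strand is not known here, so reads there cannot be told apart. Irx3os was listed at 0 at E11.5 and stood at 2.56 ± 0.462 RPKM for E13.5, 1.44 ± 0.382 for E16.5 and 0.0525 ± 0.0742 for P6 (SD, n = 2 each; limma adjusted p = 0.250 for E11.5 to E13.5 and 0.261 for E16.5 to P6). It was carried by 31 cells, 27 of which carried Irx3, against 13.9 expected.

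Crnde, a long noncoding RNA gene on the opposite strand whose start lies 1505 bases from that of Irx5, stood at 0.0810 ± 0.0430 RPKM for E11.5, 8.71 ± 4.05 for E13.5, 9.02 ± 0.904 for E16.5 and 10.4 ± 6.67 for P6 (SD, n = 2 each). Its change from E11.5 to E13.5 was 3.10 ± 0.60 (limma adjusted p = 0.278) and that from E16.5 to P6 0.05 ± 0.60 (adjusted p = 1), so it did not share the low P6 level of Irx3. Crnde occurred with Irx5 in 10 cells against 5.19 expected and with Irx3 in 22 against 13.1. The genes on the far side of Irx3 showed no such excess. Fto, an RNA demethylase gene, and Rpgrip1l, a ciliary gene, had ratios to Irx3 of 1.02 and 1.06, and Fto stood between 7.22 and 12.7 RPKM as a stage mean throughout. Adamts16, a protease gene beside the chromosome 13 cluster, stood at 1.30 ± 1.18, 16.4 ± 11.4, 8.82 ± 4.48 and 1.77 ± 0.318 RPKM at E11.5, E13.5, E16.5 and P6 (limma adjusted p = 0.608 and 0.611 for the 2 comparisons) while Irx1, Irx2 and Irx4 were at 0 at E13.5. Ube2ql1 on the same side stood at 0.0121 ± 0.0171 RPKM at E16.5 and 3.10 ± 1.85 at P6 (limma adjusted p = 0.242). None of the 17 tested genes of the 2 neighbourhoods passed in either comparison.

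Genes whose cell pattern was most like that of Irx3 were ranked by Pearson r of log2(RPKM + 1), after the mean of each capture had been taken away, over all cells of the 12 captures. These were Cgn (r = 0.38), encoding the tight junction protein cingulin, the bHLH repressor gene Bhlhe41 (0.38), the laminin receptor subunit gene Itga6 (0.33), Lzts1 (0.33), Kitl (0.31), encoding the KIT ligand that acts on germ cells, and Gng13 (0.30). The 99th percentile over 13368 genes was 0.19, and the same 6 genes led without the shallow capture. Their stage means ran alike in part. Cgn stood at 38.5 RPKM for E11.5, 197 for E13.5, 168 for E16.5 and 18.9 for P6, and Bhlhe41 at 19.6, 85.9, 147.3 and 13.8, whereas Itga6 kept 42.5 RPKM at P6 after 45.6 at E16.5. Irx3 had r = -0.27 with Nr2f2 and 0.25 with Nr5a1, and its lowest value was with Mdk (-0.34). With Foxl2 it had r = 0.17, which ranked 165th and lay under the 99th percentile. Cells share capture and depth. The r with the number of detected genes was 0.05 for Irx3 and 0.13 for Irx5, whose 99th percentile over genes was 0.14.

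The genes most like Irx5 were Lgr5 (r = 0.27), the calcineurin subunit gene Ppp3cc (0.24), Lzts1 (0.23), the receptor gene Tnfrsf19 (0.22), Bmp2 (0.21) and Gng13 (0.21), so Lzts1 and Gng13 stood in both sets. Between Irx3 and Irx5 r was 0.19, which placed Irx3 12th for Irx5 and Irx5 120th for Irx3. Irx5 had r = 0.03 with Foxl2, which ranked 5495th. Lgr5 stood at 0.519 ± 0.734 RPKM for E11.5, 14.5 ± 0.742 for E13.5, 16.2 ± 5.84 for E16.5 and 0.108 ± 0.111 for P6 (SD, n = 2 each), with limma adjusted p = 0.317 and 0.110 for the 2 comparisons. These correlations are weak, come from sparse values and are given as a description.

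The wider lists gave no gene past the test in E11.5 to E13.5 or E16.5 to P6, so they are described by counts. Of 12 other TALE homeobox genes, 4 were higher and 8 lower at E13.5 than at E11.5, with a median change of -0.66, beside 0.01 over all genes. Meis2, a partner of HOX proteins, stood at 19.4 ± 7.82 RPKM for E11.5, 6.74 ± 1.65 for E13.5, 9.52 ± 3.8 for E16.5 and 0.612 ± 0.560 for P6 (limma adjusted p = 0.158 for E16.5 to P6). Mkx, the tendon homeobox gene and the TALE gene closest in kind to the Iroquois genes, went the other way, at 0.494 ± 0.404 RPKM at E16.5 and 11.48 ± 0.0480 at P6 (SD, n = 2 each; limma adjusted p = 0.191).

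All 20 Wnt pathway genes tested had a negative fitted change from E16.5 to P6, with a median of -0.87 beside 0 over all genes. Of these, 2 had a higher stage mean in RPKM at P6, the receptor genes Fzd1 (3.76 and 8.12 RPKM, change -0.05) and Lrp6 (9.94 and 11.1 RPKM, change -0.03). An unadjusted limma p under 0.05 was reached by 6 of the 20, and by 1764 of the 19710 genes. Rnf43, a Wnt feedback gene, stood at 6.79 ± 0.566 and 0.157 ± 0.202 RPKM (limma adjusted p = 0.0796) and Lef1, a nuclear effector gene, at 9.95 ± 0.120 and 1.63 ± 0.375 (limma adjusted p = 0.183). From E11.5 to E13.5, 15 of the 20 were higher, with a median change of 0.42 beside 0.01 over all genes. Of 12 pregranulosa genes 11 were higher at E13.5 than at E11.5, with a median change of 2.08 beside the same 0.01. The share of all genes that were higher is not given here, so these counts are a description. Fst stood at 3.23 ± 0.578 and 57 ± 3.31 RPKM (limma adjusted p = 0.250).

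From E16.5 to P6, 10 of the 12 pregranulosa genes were lower and 2 higher, with a median change of -0.48 beside 0 over all genes. Gng13 stood at 208 ± 0.941 RPKM at E16.5 and 6.30 ± 0.410 at P6 (SD, n = 2 each; limma adjusted p = 0.145), like Irx3 and Lgr5. Foxl2 stood at 9.78 ± 4.25 and 24.9 ± 1.63 RPKM (limma adjusted p = 0.653), so P6, where Irx3 was scarce, had the highest Foxl2 stage mean. Of 11 cell junction genes tested, 6 were higher and 5 lower in each of the 2 comparisons, with median changes of 0.01 in both. Gja4, the connexin 37 gene, was listed at 0 at E11.5 and stood at 1.80 ± 0.456 RPKM at E13.5 (limma adjusted p = 0.335), and Cldn1 stood at 0.0304 ± 0.0430 RPKM at E16.5 and 12.6 ± 13.7 at P6 (limma adjusted p = 0.261).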

How the data were processed

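The authors' deposited table held 43347 gene names for 663 libraries, each 1 cell, with no unit name. Values were taken as RPKM as deposited by the authors, since totals differed between cells and a median of 70.7% of low values per cell, times gene length, fell within 0.02 of whole multiples of 1 read. For Irx3 and Irx5 all low values did so within 0.05 once a gene length was fitted, which gave the reads quoted. The build was GRCm38.p3 (mm10), per the submitters' processing notes. For the aligner, the counter, its use of strand and any cell filter, nothing is given in the sources used here. Names turned into dates (27 rows) were left out, and 36002 names were found in GENCODE vM21. A repeat library (r = 0.996 with its first, 0.802 at most for any other pair) was averaged as 1 cell. No cell was removed, and doublets were not called.

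Capture means, log2(mean + 1), were fitted with limma 3.58.1 (R 4.3.3; stage plus sequencing series, intensity trend, 5 residual degrees of freedom, two-sided, adjusted p under 0.05) over 19710 genes with a mean of 1 RPKM in at least 1 capture. Captures are chip runs, and nothing says that they came from separate animals, so a p-value covers only the spread from one chip run to another, which may be technical. Shares within captures used exact sign-flip permutation tests, in Python 3.11.15 with scipy 1.17.1, for captures with 5 cells on each side and genes with 20 carriers. The fit and the permutation test were tested on simulated data. For E16.5 to P6 the fit called 7% of 100 genes given a log2 change of 2 and 43% of 100 given 4. It made 2 false calls. Changes of this size were thus often missed, and a gene that did not pass may still have changed. Members and lists were chosen with earlier results of these data known. Named are all 6 members, from each list the 3 members with the lowest adjusted p in E11.5 to E13.5 and in E16.5 to P6 (a choice of these is printed), the 6 genes most like Irx3 and like Irx5 without provisional names, and 4 markers. Single cells described at E10.5 and P6, and genes within marker sets, were chosen after their values were seen. Alternatives were other pseudocounts, filters, scalings, averages and thresholds, no series term, each series alone, cells with 2000 detected genes, Foxl2 cells and each capture left out.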

Additional observations from a re-analysis of the deposited data

How the results depend on the processing

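Depth, the single E10.5 capture and 2 captures at most other stages limit these results. No paired analysis was possible because replicate numbers of cells follow accession order and captures of different stages share none. The fit without the third E12.5 capture could not be made, since that capture alone ties the 2 series together at 1 stage. In 237 of 242 alternative fits of single steps, Irx3 and Irx5 did not reverse direction and kept their side of the threshold. These include an Irx5 change of 0 from E11.5 to E12.5 without the first E12.5 capture. Fits that left out only captures of other stages often could not move a step, so the count overstates how far the steps were tried. Exceptions for Irx3 were E12.5 to E13.5, which ranged from 1.48 to 3.09 over the captures left out and passed at its highest value (without the first E12.5 capture), and the F test over all stages, where the highest and lowest fitted stage levels lay 2.62 apart (log2) with means of log values (passed) and 4.55 to 6.16 apart with a capture left out (passed without the first or the second E12.5 capture). For Irx5, E12.5 to E13.5 was -0.18 in Foxl2 cells (added after seeing the data), and with a capture left out E13.5 to E16.5 ranged from -0.67 to 1.34 and E16.5 to P6 from -1.49 to 0.52; the cause was not tested. With carriers counted at any value above 0, Irx3 was in 15.5% of E10.5 cells, 70.8% of E13.5 cells, 49.4% of E16.5 cells and 9.70% of P6 cells, and Irx5 in 29.2% at E13.5 and 6.67% at P6. At 5 RPKM, Irx3 was in 35.8% at E13.5 and 28.3% at E16.5 and Irx5 in 6.60% at E13.5. Cells with 2000 detected genes gave 40.4% for Irx3 at E16.5. The marker differences that lost their call at any value above 0 were Irx3 with Foxl2 (18.02 points) and with Upk3b (-2.37). Irx5 with Nr2f2 changed sign there (1.12), and over captures left out it ranged from -4.0 to 1.67 and Irx5 with Upk3b from -2.23 to 3.58. The Irx3 and Irx5 co-detection ratio was 1.52 at any value above 0, 1.76 at 5 RPKM and 1.57 without the shallow capture. With a capture left out, the share of genes called reached 1.99% from E10.5 to E11.5, 8.18% from E11.5 to E12.5, 1.12% from E11.5 to E13.5, 8.26% from E12.5 to E13.5, 4.04% from E13.5 to E16.5, 1.89% from E16.5 to P6 and 7.25% over all stages, and its lowest values for these were 0.791%, 0%, 0%, 0%, 0%, 0.0974% and 0.00514%. In the same order it was 2.26%, 0%, 0.0304%, 0%, 0%, 0.649% and 2.48% with means of log values, 3.71%, 0.155%, 0.178%, 0.0888%, 2.1%, 0.378% and 5.59% with no filter, and 0.00592%, 0.00592%, 0%, 0.00592%, 0%, 0.308% and 0.0889% with a filter of 1 RPKM in 2 captures. Each series alone called 0 genes at the steps it holds, with 897 to 1564 under 0.05 unadjusted by limma. From E13.5 to E16.5 a pseudocount of 0.1 called 45 genes, quantile normalization 58 and no series term 0, and from E10.5 to E11.5 no series term called 95.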
